A study of Homo sapiens with 60 samples.

Results

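The 50 genes described here encode collagens, laminins and the proteins that assemble, crosslink and signal through the extracellular matrix. They were chosen by name, with earlier results of these data known, so their shares beside those of all genes are descriptive. Matched to Ensembl gene identifiers, all 50 of them were found among the 60675 genes of the count table. All 50 also passed the filter on low counts that left 17676 genes for testing. They comprise 6 fibrillar collagens, 8 other collagens, 11 basement membrane genes, 6 fibronectin and elastic fibre genes, 5 matricellular genes, 4 proteoglycans, 5 crosslinking enzymes and 5 genes of the transforming growth factor beta (TGF-beta) group.

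The extracellular matrix is the protein scaffold that cells secrete around themselves. Fibrillar collagens form tensile fibres after their chains are hydroxylated and folded in the endoplasmic reticulum, and lysyl hydroxylases and lysyl oxidases then prepare and form the crosslinks between molecules. Laminins, type IV collagen, nidogens and perlecan build basement membranes, and TGF-beta, stored in the matrix in a latent form, is a strong inducer of many of these genes. In brain tumours such matrix proteins surround vessels and invading cells.

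RNA was sequenced from SW1783, an established human astrocytoma line from 1 tumour, 24 h after the cells received an extract or its DMSO vehicle. Astragali Radix (astragalus root) was given at 8.8, 44 and 220 µg/mL. Cinnamomi Cortex (cinnamon bark), Rehmanniae Radix Preparata (prepared Rehmannia root) and the formulas Sibjeondaebo-tang, Palmul-tang, Sagunja-tang and Samul-tang were given at 20, 100 and 500 µg/mL. These doses are called low, medium and high. All are ethanol extracts, mixtures whose active compounds the labels do not name. By recipe, the herbs of Sagunja-tang and of Samul-tang together make Palmul-tang, to which Cinnamomi Cortex and Astragali Radix are added for Sibjeondaebo-tang. Each dose of 6 extracts had 3 libraries, Rehmanniae Radix Preparata had 1 library at each dose, and the vehicle had 3, which made 60 libraries. Nothing in the labels ties replicates to independent cultures, and the p-values then reflect only how these libraries vary, which may be technical. Vehicle samples are labelled with 0.1% DMSO, whereas the series text states 2%.

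Total expected counts ranged from 19793387 to 37152410 per library. Levels are in CPM, reads per gene relative to library size, with that size adjusted by the trimmed mean of M-values (TMM). Differences are log2 ratios ± SE from edgeR's quasi-likelihood test over all 17676 genes. A gene was called at a Benjamini-Hochberg adjusted p below 0.05. The titles of all libraries, the vehicle included, begin with BatchF. Sample labels also hold a code that the labels do not explain, and the code of the vehicle occurs in no extract library. Code and treatment thus cannot be told apart in comparisons with the vehicle. Mitochondrial genes took 7.55 to 8.04% of the counts in the vehicle libraries, more than in any extract library, and the part of this in the comparisons was not tested. All comparisons against the vehicle share its 3 libraries, so they are not independent of each other. Dose trends use no vehicle library and are slopes on the log2 scale for each 5-fold step of dose. They are set by the low and high groups alone, so a slope does not show that the medium dose lay between them. In bulk RNA, fewer cells of a kind and less RNA per cell cannot be told apart.

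Among defining markers, VIM, CD44 and SOX9 averaged 5536, 2961 and 81.9 CPM in the vehicle, while the astrocyte genes GFAP, S100B, AQP4 and ALDH1L1 each stayed at or below 0.321 CPM in all libraries. The astrocyte transporter SLC1A3 averaged 22.6 CPM in the vehicle. The defining markers were thus in part near 0 and in part present, and the cells are called SW1783 cells here. Of the fibroblast and pericyte markers, PDGFRB and ACTA2 averaged 57.1 and 147 CPM in the vehicle, whereas DPT and PI16 did not exceed 0.422 CPM in any library. The epithelial markers EPCAM, CDH1 and KRT5 did not exceed 0.433 CPM in any library.

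The matrix genes differed widely in abundance. In the vehicle, levels per kilobase of transcript were highest for TGFBI, a TGF-beta-induced adhesion protein, at 1624 CPM per kb. SPARC, a collagen-binding matricellular protein, followed at 687, COL1A1, a chain of type I collagen, at 648, and fibronectin (FN1) at 629 CPM per kb. COL3A1, the type III collagen chain, reached 5.03 CPM per kb, and elastin (ELN) and the microfibril gene FBN2 were lowest, at 0.821 and 0.776 CPM per kb. Some members overlap another expressed gene on the opposite strand: COL4A1 and COL4A2 overlap each other, TGFB1 overlaps HNRNPUL1, LAMA5 overlaps ADRM1, NID2 overlaps RTRAF and LOXL1 overlaps LOXL1-AS1. LOXL2 overlaps ENTPD4 on the same strand. The kit keeps strand but the strand setting of the counting is not given in the sources used here, so values of these members are uncertain to that extent.

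Astragali Radix low libraries 1 and 2 stood apart from all others. Deviations were taken from each gene's mean over the 57 libraries with replicates. Transcript length and GC content accounted for 16.6% and 39% of their variance in libraries 1 and 2, and for at most 4.08% in any other library. Library 2 also had the lowest mitochondrial share, 1.38%. The matrix genes have long transcripts, with a median length of 5788.5 bases. COL7A1, the collagen of anchoring fibrils, had 186, 1035 and 243 CPM in these 3 low-dose libraries, and COL1A1 had 3841, 14400 and 3901 CPM. For both genes library 2 lay far above the others. The SD of log2 CPM over the 3 libraries was 1.33 for COL7A1 and 1.09 for COL1A1, against a median SD of 0.0673 and 0.0381 over the other groups. SPARC, by contrast, had 2330, 2364 and 2427 CPM there, an SD of 0.0299 that did not exceed its 0.0308 in the other groups. Since all groups share 1 estimate of the spread, results are also given without libraries 1 and 2, a fit that tested 18357 genes. A share of all genes called that is given as 1 value for this fit covers both directions.

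**Figure D1:**
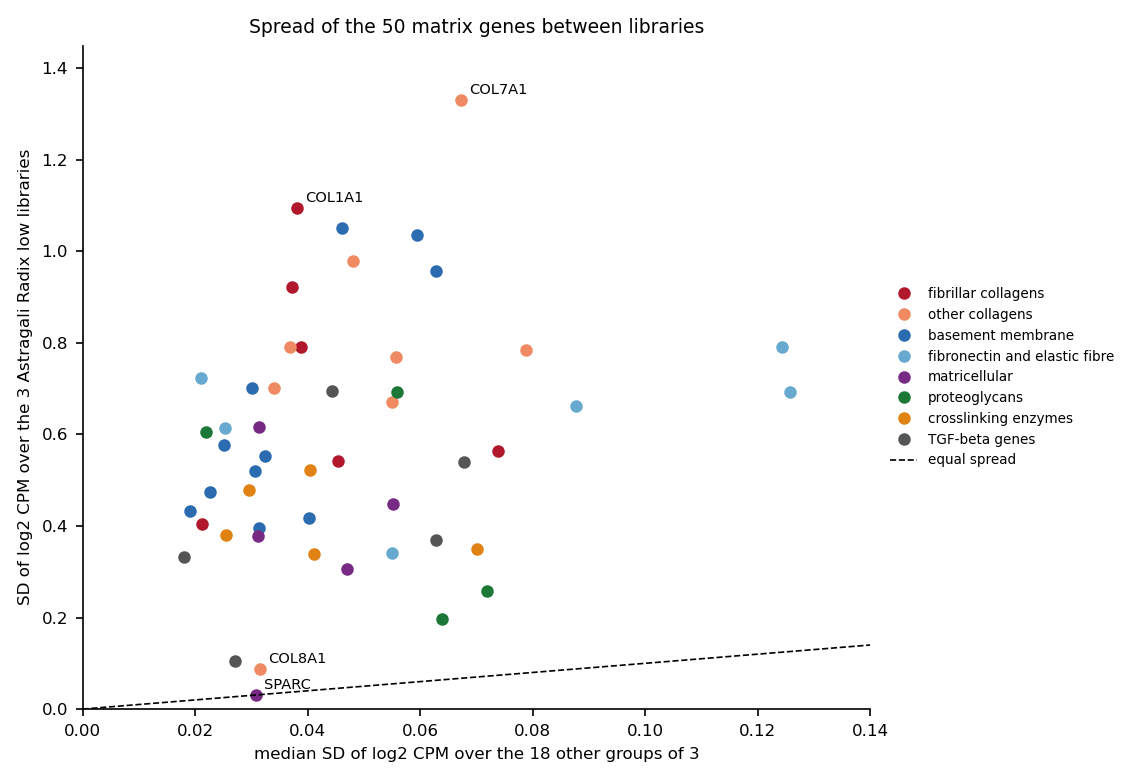
Spread of the 50 matrix genes between libraries. The vertical axis is the SD of log2 CPM over the 3 Astragali Radix low libraries, the horizontal axis the median SD over the 18 other groups of 3, colours mark gene groups and the dashed line is equal spread; COL7A1 and COL1A1 lie highest, at 1.33 and 1.09, and SPARC lies on the line.

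The high dose of Astragali Radix lowered most fibrillar and basement membrane genes while a subset of crosslinking enzymes and proteoglycans rose. THBS1, COL1A1, COL5A1 and LOXL1 were among the members that fell, and LOX and PLOD2 led those that rose. Of the 50 members, 9 (18%) were higher and 23 (46%) lower than the vehicle, against 32.6% and 35.6% of all genes tested. The share that rose was below that of all genes and the share that fell above it. The median log2 ratio was -0.27 over the members and -0.06 over all genes. With a length and GC correction these medians were -0.10 and 0.02. There 13 members were higher and 22 lower, against 6744 and 5970 of 17676 genes. Without Astragali Radix low libraries 1 and 2, 11 members were higher and 30 lower, against 72.3% of all genes called in either direction, and all 32 earlier calls were among them in the same direction.

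Of the fibre-forming collagens, COL1A1 and COL5A1 fell furthest. COL1A1 (chromosome 17, 50183289 to 50201632, GRCh38, reverse strand) had 1558, 1352 and 1305 CPM in Astragali Radix high libraries, against 4300, 4383 and 4400 CPM in vehicle libraries. COL5A1, whose product limits the width of collagen fibrils (chromosome 9, 134641774 to 134844843, forward strand), had 849.5, 779 and 747.2 CPM at the high dose, against 2267, 2218 and 2329 CPM in the vehicle. For both genes every extract library lay below every vehicle library. The log2 ratios were -1.63 ± 0.21 for COL1A1 (adjusted p = 2.5e-09) and -1.52 ± 0.17 for COL5A1 (adjusted p = 1.0e-10). COL1A2, the partner chain of type I collagen, had 972.9, 945.6 and 926.4 CPM against 1772, 1825 and 1809 CPM (log2 -0.93 ± 0.15). COL11A1, a minor fibrillar collagen, fell by 1.10 on the log2 scale and COL5A2 by 0.27. COL3A1, at 29.9, 30.5 and 28.3 CPM against 27.4, 28.5 and 27.8 CPM, was the only fibrillar collagen of the 6 that was not called (log2 0.08 ± 0.11). The fibrillar group thus held 5 lower members of 6, with a median log2 ratio of -1.01.

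The other collagens were mixed, with 4 of 8 lower and 1 higher. COL8A1, a short-chain collagen that forms open networks, had 61.2, 62.1 and 55.0 CPM at the high dose, against 139.5, 138.3 and 147.2 CPM in the vehicle (log2 -1.25 ± 0.04, adjusted p = 5.1e-28). The groups did not overlap. COL13A1, a transmembrane collagen, fell by 1.58 on the log2 scale, COL12A1, which decorates fibrils, by 1.03, and COL7A1 by 0.59. COL6A2, a chain of the microfibrillar type VI collagen, had 1840, 1699 and 1599 CPM against 1141, 1178 and 1138 CPM, and was the member of this group that rose (log2 0.57 ± 0.13). Its partner COL6A1 averaged 2301 CPM at the high dose and 2036 CPM in the vehicle and was not called.

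In the basement membrane group 8 of 11 members were lower and none higher, with a median log2 ratio of -0.42. LAMC1, the gamma chain shared by most laminins, had 428.1, 416.3 and 442.5 CPM at the high dose, against 747.9, 735.2 and 743.4 CPM in the vehicle (log2 -0.79 ± 0.08, adjusted p = 7.9e-12). LAMA5, a laminin alpha chain, had 56.1, 54.8 and 51.4 CPM against 138.5, 127.8 and 144.7 CPM (log2 -1.34 ± 0.18). The 3 extract libraries lay below the 3 vehicle libraries for both laminins. HSPG2, which encodes perlecan, fell by 1.11 on the log2 scale, LAMA4 and LAMB1 by 0.48 each, LAMB2 by 0.42, COL4A1 by 0.33 and NID2 by 0.32. COL4A2, COL18A1 and NID1 were not called, with log2 ratios between -0.11 and -0.06.

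THBS1 fell further than any other member. It encodes thrombospondin 1, a matricellular protein that can activate latent TGF-beta (chromosome 15, 39581079 to 39599466, forward strand). It had 299.8, 250.7 and 268.9 CPM at the high dose, against 2300, 2262 and 2333 CPM in the vehicle. Each extract library lay far below all vehicle libraries, at a mean 0.119 times the vehicle level (log2 -3.07 ± 0.08, adjusted p = 5.4e-34). Its relative THBS2 had 73.9, 71.0 and 70.2 CPM against 160, 160.8 and 170.5 CPM (log2 -1.19 ± 0.08). SPARC had 3149, 3138 and 2735 CPM against 2576, 2590 and 2461 CPM (log2 0.24 ± 0.04), and tenascin C (TNC) and periostin (POSTN) were not called.

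The crosslinking enzymes moved in opposite directions. LOX, a lysyl oxidase that starts crosslinks in collagen and elastin (chromosome 5, 122063195 to 122078360, reverse strand), had 409.6, 407.3 and 396.8 CPM at the high dose, against 200.8, 206.7 and 202.8 CPM in the vehicle. PLOD2, the lysyl hydroxylase that acts on collagen telopeptides (chromosome 3, 146069440 to 146163653, reverse strand), had 642.6, 628.3 and 598.2 CPM, against 340.5, 354.3 and 345.5 CPM. All extract libraries lay above all vehicle libraries for both enzymes, with log2 ratios of 0.99 ± 0.10 for LOX (adjusted p = 2.2e-12) and 0.85 ± 0.09 for PLOD2 (adjusted p = 1.5e-11). LOXL1, a lysyl oxidase known for elastic fibre upkeep, went the other way, with 90.1, 81.7 and 71.9 CPM against 204.8, 214.7 and 206.3 CPM (log2 -1.36 ± 0.10). PLOD1 rose by a log2 ratio of 0.31 ± 0.08, and LOXL2 was not called.

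**Figure D2:**
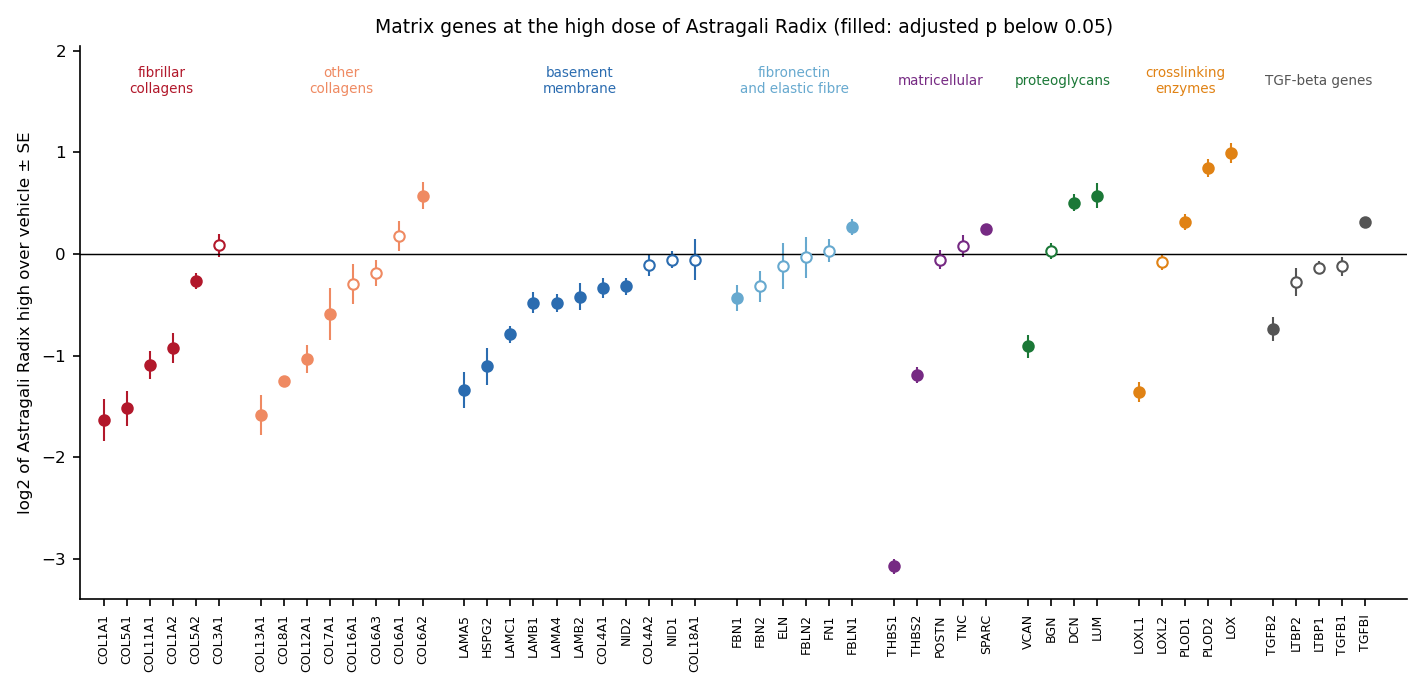
Matrix genes at the high dose of Astragali Radix. Points are log2 ratios of 3 extract over 3 vehicle libraries with SE bars from edgeR, grouped by role, and filled points were called; THBS1 lies lowest at -3.07 and LOX highest at 0.99.

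The promoters of LOX, PLOD2, THBS1 and COL5A1 are shown because LOX and PLOD2 rose most, THBS1 fell most and COL5A1 is a fibrillar collagen that fell. Each sequence runs from 250 bases before to 50 bases after the most upstream start in RefSeq on GRCh38.p14, 5′ to 3′ on the strand of the gene. Capitals mark ACGTG on either strand, 1 form of the core of the hypoxia response element. The form GCGTG is not marked or counted.
LOX: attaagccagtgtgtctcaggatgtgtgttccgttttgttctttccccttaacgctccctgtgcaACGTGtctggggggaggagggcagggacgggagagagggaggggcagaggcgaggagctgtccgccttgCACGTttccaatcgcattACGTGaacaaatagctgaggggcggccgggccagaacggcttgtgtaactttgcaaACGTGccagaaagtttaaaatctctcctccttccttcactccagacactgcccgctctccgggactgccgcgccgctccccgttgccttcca
PLOD2: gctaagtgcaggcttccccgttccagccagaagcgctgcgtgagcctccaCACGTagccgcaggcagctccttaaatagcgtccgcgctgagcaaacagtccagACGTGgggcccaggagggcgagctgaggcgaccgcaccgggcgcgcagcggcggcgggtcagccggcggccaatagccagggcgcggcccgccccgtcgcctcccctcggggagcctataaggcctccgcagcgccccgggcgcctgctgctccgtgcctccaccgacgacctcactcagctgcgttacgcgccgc
THBS1: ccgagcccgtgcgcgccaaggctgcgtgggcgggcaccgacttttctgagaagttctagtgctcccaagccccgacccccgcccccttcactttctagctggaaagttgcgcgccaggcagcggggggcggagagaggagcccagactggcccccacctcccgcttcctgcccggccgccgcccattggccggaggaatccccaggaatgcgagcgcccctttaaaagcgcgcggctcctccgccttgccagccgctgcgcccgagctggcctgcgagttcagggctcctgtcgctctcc
COL5A1: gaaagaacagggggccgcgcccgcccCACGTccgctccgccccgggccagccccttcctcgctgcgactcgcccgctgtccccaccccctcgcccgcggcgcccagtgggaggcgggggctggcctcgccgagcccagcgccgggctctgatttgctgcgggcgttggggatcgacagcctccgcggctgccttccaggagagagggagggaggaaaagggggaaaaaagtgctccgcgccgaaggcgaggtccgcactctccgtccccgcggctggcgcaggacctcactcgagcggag
These windows lie at chr5:122078210-122078509 (reverse strand) for LOX, chr3:146161135-146161434 (reverse strand) for PLOD2, chr15:39580829-39581128 (forward strand) for THBS1 and chr9:134641553-134641852 (forward strand) for COL5A1. The LOX window held 4 matches to ACGTG, the PLOD2 window 2, the COL5A1 window 1 and the THBS1 window none. The letters GCGTG do stand in the THBS1 and PLOD2 windows, so the THBS1 window is not without this core. A promoter was found for 40 of the 50 members, in 47 windows, and a member counted if any of its windows matched. The share of all windows counts each window singly, so the members' shares can be raised by this. Of the 40, 9 (22.5%) held ACGTG, against 21.4% of all 35116 windows of that length. The letters GGGCGG, a binding motif of Sp1 family factors, stood in 30 of the 40 (75%), against 45% of all windows. CCAAT stood in 11 (27.5%) against 34.6%, and TATAAA in 7 (17.5%) against 11.5%. Both strands were searched, none of these motifs contains another, and a match only describes the sequence.

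Among the proteoglycans, the fibril-binding LUM and DCN were higher and versican (VCAN), a large hyaluronan-binding proteoglycan, was lower. VCAN had 365.3, 344.5 and 345.5 CPM at the high dose, against 669.2, 628.7 and 682 CPM in the vehicle (log2 -0.91 ± 0.11). LUM had 41.9, 42.2 and 39.3 CPM against 27.7, 28.4 and 26.9 CPM (log2 0.57 ± 0.12). The groups overlapped for neither gene. In the TGF-beta group, the ligand TGFB2 fell by 0.74 on the log2 scale and TGFBI rose by 0.32 ± 0.04, while the ligand TGFB1 had 522.1, 497.2 and 414 CPM against 520.3, 517.1 and 524 CPM and was not called. Of the fibronectin and elastic fibre genes, FBN1, the main microfibril protein, fell by 0.43 and FBLN1 rose by 0.27 on the log2 scale.

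The scaling bears on the smaller rises at this dose. TMM factors were 0.751 to 0.783 in Astragali Radix high libraries and 0.956 to 0.967 in vehicle libraries. Scaling by library totals, an alternative chosen after seeing the data, moved the median log2 ratio of all genes by -0.33, and gave 2 members higher and 38 lower, with 3573 of all 17676 genes higher and 9004 lower. LOX (log2 0.66) and PLOD2 (0.51) were still called higher. COL6A2, LUM and DCN were no longer called, and PLOD1, TGFBI, FBLN1 and SPARC changed sign, to values between -0.09 and -0.02, with SPARC called lower. The summed level of the 6 fibroblast and pericyte markers was 125.5 to 147.7 CPM in Astragali Radix high libraries and 225.7 to 238.7 CPM in vehicle libraries. Of this list ACTA2, PDGFRA and PDGFRB fell and RGS5 rose (log2 0.60), and DPT and PI16 were near 0. The astrocyte and glioma markers summed to 9739 to 11320 CPM at the high dose against 8426 to 8726 CPM in the vehicle. Of these VIM (7602 against 5536 CPM) and the scarce OLIG2 rose, SLC1A3 and NES fell, and CD44 and SOX9 were not called. The leukocyte markers summed to 255.5 to 270.5 against 192.1 to 210.3 CPM. Most of that was CD68 (259.8 against 191.2 CPM), while PTPRC fell (4.26 against 8.58 CPM) and CD14 was not called. The endothelial markers summed to 20.2 to 22.6 against 27.8 to 32.5 CPM, most of it KDR. Sums of these lists thus do not stand for cell types. The part of these in the result was not tested.

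Genes outside the 50 that fold and process collagen moved mostly upward at this dose. Of 15 such genes 11 were higher and 2 lower, with a median log2 ratio of 0.26, against 32.6% and 35.6% of all genes. P4HA2 and P4HA1, catalytic subunits of the prolyl hydroxylase that stabilises the collagen helix, averaged 355.8 and 446.6 CPM at the high dose, against 135.4 and 239.5 CPM in the vehicle (log2 1.39 ± 0.06 and 0.90 ± 0.09). ADAMTS2, which removes the amino propeptide of procollagen, fell by 1.04 on the log2 scale. Scaling by library totals left 5 of the 15 higher and 6 lower, with 3573 of all 17676 genes higher and 9004 lower.

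The next 3 lists are read against the same shares of all genes, 32.6% higher and 35.6% lower, and several of their counts lie near them. Of 16 TGF-beta signalling genes, 4 were higher and 8 lower. The signal transducer SMAD3 averaged 43.2 CPM against 160.4 CPM (log2 -1.89 ± 0.06), and CCN2, a classic TGF-beta target, averaged 70.3 CPM against 190.2 CPM (log2 -1.44 ± 0.08). The receptors TGFBR3 and TGFBR1 rose, by log2 ratios of 1.77 and 1.26. Of 13 integrins and collagen receptors, 5 were higher and 1 lower, led by ITGB3 (log2 1.95 ± 0.12) upward and by dystroglycan (DAG1, log2 -1.11 ± 0.06) downward. Of 11 collagens and laminins outside the 50, 5 were higher and 4 lower, among them LAMA1 (log2 1.39 ± 0.14) and LAMA3 (log2 -1.17 ± 0.14).

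At the medium dose of Astragali Radix fewer members were lower and no member was called higher. Of the 50 members 14 (28%) were lower, against 7.75% of all genes higher and 8.81% lower. COL8A1 had 105.6, 107.4 and 107.8 CPM, against 139.5, 138.3 and 147.2 CPM in the vehicle (log2 -0.41 ± 0.04). COL5A1 had 1476, 1413 and 1512 CPM against 2267, 2218 and 2329 CPM (log2 -0.63 ± 0.17). COL13A1 fell by 0.72, BGN, the proteoglycan biglycan, by 0.52 and TGFB1 by 0.53 on the log2 scale. The groups overlapped for none of these. BGN and TGFB1 averaged 48.6 and 359.3 CPM at the medium dose, but 70.9 and 477.8 CPM at the high dose, against 69.6 and 520.5 CPM in the vehicle. Over the low doses of the 5 extracts other than Astragali Radix, group means were 52.0 to 60.5 CPM for BGN and 366.3 to 414.5 CPM for TGFB1. THBS1, with 2139, 2222 and 2337 CPM, and LOX, with 207.4, 191.4 and 198.2 CPM, overlapped the vehicle at this dose. Without low libraries 1 and 2, 2 members were higher and 35 lower, against 33.8% of all genes called.

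At the low dose, 10 members (20%) were called higher and 16 (32%) lower, against 21.6% and 19.2% of all genes, but most of these calls rested on libraries 1 and 2. COL1A1 was called higher (log2 0.76 ± 0.20) with 2 of its 3 libraries below the vehicle, and without library 2 it was called lower (log2 -0.18). COL18A1 likewise changed from 0.74 to -0.12 without library 2. With library 3 alone, assumed to vary like the other groups, 8 members were higher and 6 lower, against 15.9% of all genes, and only 6 of the 26 first calls remained in the same direction. COL7A1, at 243.3 CPM in library 3 against 156.1, 157.2 and 162.4 CPM in the vehicle, was still called higher.

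Across its doses, Astragali Radix lowered 24 members (48%) and raised 13 (26%), against 38.7% and 31.3% of all genes. Without low libraries 1 and 2 the trend was lower for 27 members and higher for 15, against 65.5% of all genes called, and 32 calls were shared. THBS1 fell by 1.61 per 5-fold step of dose in that fit and by 1.49 with all libraries, COL1A1 by 0.75 and 1.20, and COL5A1 by 0.70 and 0.88. LOX rose by 0.50 and 0.70, and PLOD2 by 0.36 and 0.53. These slopes do not show even steps. THBS1 had 1670, 2285 and 2500 CPM at the low dose and averaged 2233 CPM at the medium and 273.1 CPM at the high dose. LOX had 199.8 CPM in low library 3 and averaged 199 and 404.5 CPM at the medium and high dose. PLOD2 had 374.9 CPM in low library 3 and averaged 405.6 and 623 CPM. COL1A1 thus moved by over 1.5 times with the 2 libraries. Scaling by library totals shifted the median trend of all genes by -0.18. It left 2 members higher and 37 lower, against 3321 and 9808 of 17676 genes. SPARC, POSTN and LTBP1 changed sign, to -0.01, -0.07 and -0.11.

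**Figure D3:**
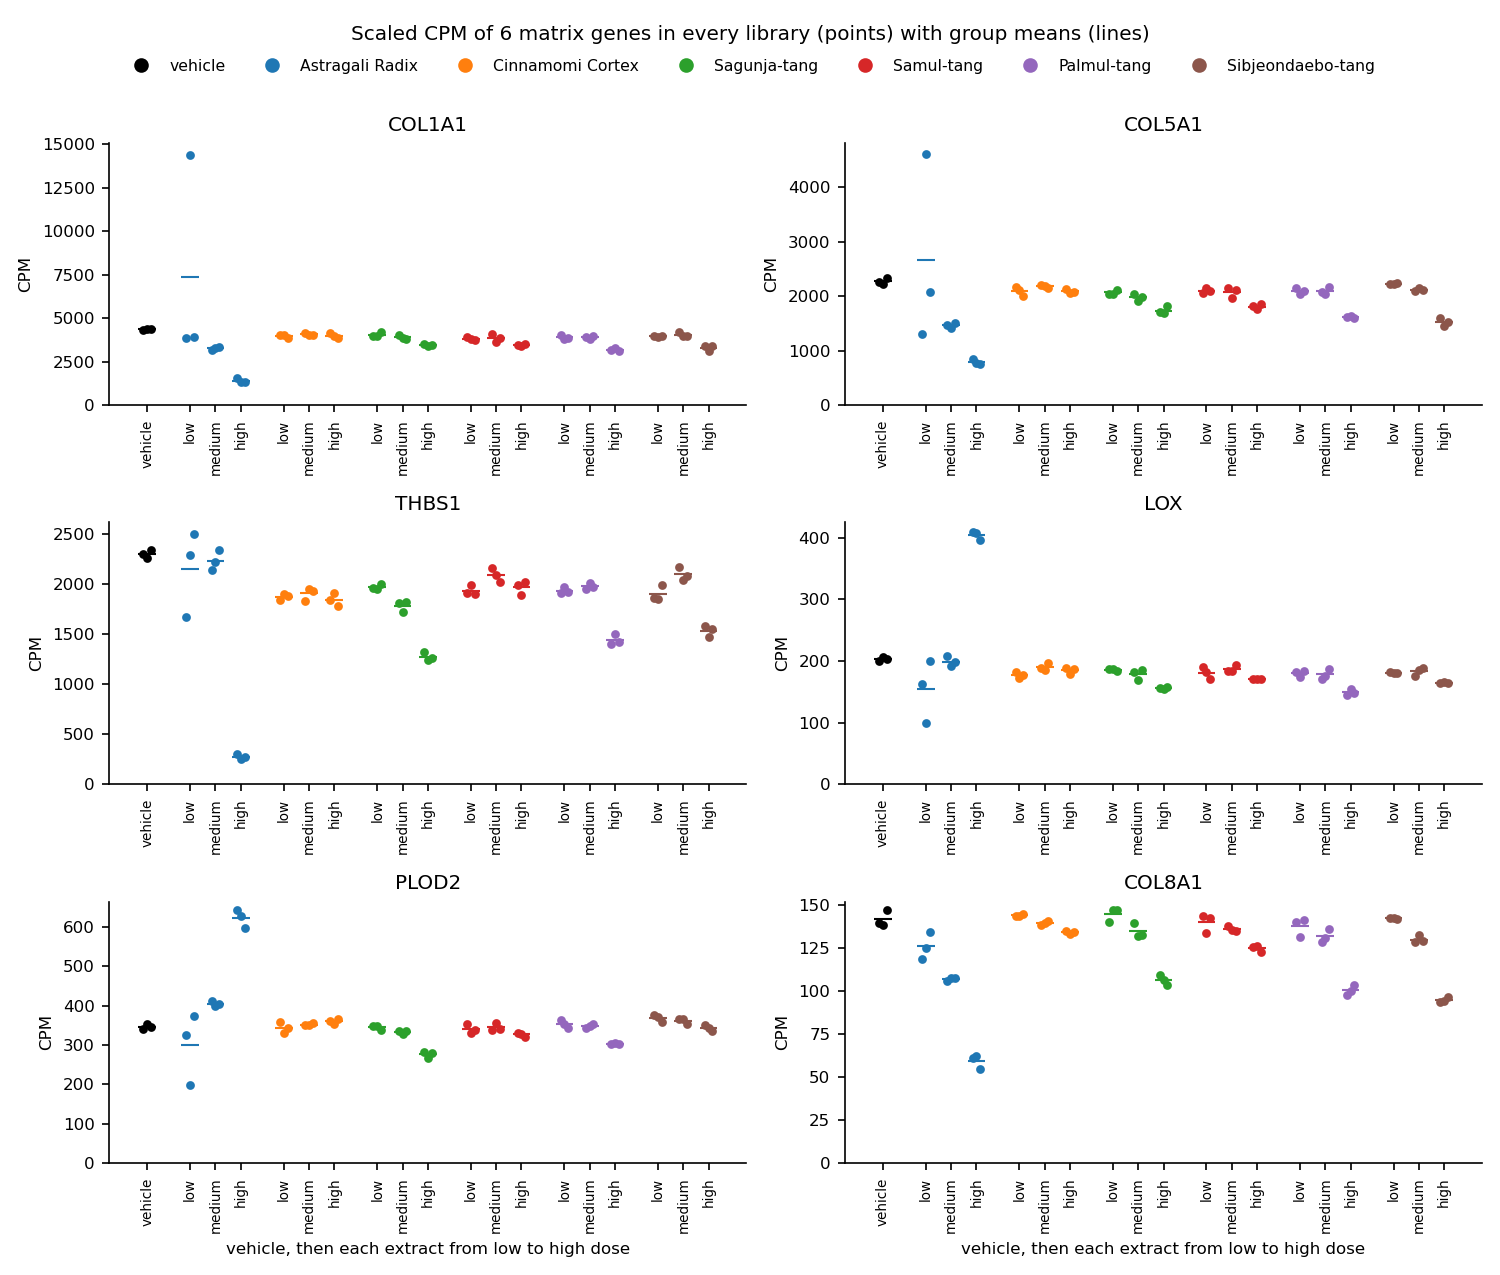
CPM of COL1A1, COL5A1, THBS1, LOX, PLOD2 and COL8A1 in every library. Points are libraries and lines are group means, from the vehicle through each extract at its low, medium and high dose; the Astragali Radix high libraries lie apart from all others for each gene, and 1 low-dose library of COL1A1 reaches 14400 CPM.

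With Sibjeondaebo-tang, members of all 8 gene groups were lower than in the vehicle. At the high dose 23 members (46%) were lower and none higher, against 11.9% and 11.2% of all genes tested, so the share of members that fell was well above that of all genes. The median log2 ratio was -0.26 over the members and 0.00 over all genes. COL8A1 had 93.5, 94.4 and 96.3 CPM, against 139.5, 138.3 and 147.2 CPM in the vehicle (log2 -0.58 ± 0.04, adjusted p = 2.6e-14). THBS1 had 1578, 1464 and 1547 CPM against 2300, 2262 and 2333 CPM (log2 -0.59 ± 0.07). Every extract library lay below every vehicle library for both genes. COL13A1 fell by 0.87, COL11A1 by 0.55, VCAN by 0.47 and FN1 by 0.39 on the log2 scale. All 5 matricellular genes were lower, and so were 3 of the 5 crosslinking enzymes, LOX included (log2 -0.31 ± 0.10). Without the Astragali Radix low libraries 1 and 2, 38 members were lower and none higher, against 3269 and 3775 of 18357 genes. The 23 earlier calls were among the 38. With a length and GC correction 30 members were lower and none higher, against 2440 and 3388 of 17676 genes. The 23 calls were among these 30. The median log2 ratio was then -0.21 over the members and 0.02 over all genes.

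With Sibjeondaebo-tang many members fell from the low to the high dose, though not all in the order of the doses. Between its low and high dose 21 members (42%) fell and none rose, against 10.7% and 10.6% of all genes. COL8A1 had 142.6, 142.5 and 141.8 CPM at the low dose, 128.3, 132.6 and 129 CPM at the medium dose and 93.5, 94.4 and 96.3 CPM at the high dose. The 3 doses did not overlap, and the slope was -0.29 ± 0.02 per 5-fold step (adjusted p = 2.1e-14). THBS2 had 200.7, 203.1 and 206.9 CPM at the low dose, 177.9, 179.9 and 181.2 CPM at the medium dose and 143.6, 141.6 and 127.2 CPM at the high dose (slope -0.28 ± 0.04). VCAN had 702.6, 718.4 and 728 CPM at the low dose, 665.8, 650.4 and 658.3 CPM at the medium dose and 505.4, 476.1 and 444.2 CPM at the high dose (slope -0.30 ± 0.06). For both genes the 3 doses again lay in order with no overlap. COL11A1 fell by 0.41, COL13A1 by 0.42, and TGFBI by 0.11 per step. THBS1 did not follow the order of the doses, with 1856, 1851 and 1988 CPM at the low, 2166, 2040 and 2073 CPM at the medium and 1578, 1464 and 1547 CPM at the high dose. Nor did TGFBI, which averaged 4457, 4509 and 3828 CPM from low to high dose. SPARC averaged 2478, 2478 and 2278 CPM, with its fall between the medium and the high dose. Without Sibjeondaebo-tang high library 3, 11 members fell in place of 21.

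Without the Astragali Radix low libraries 1 and 2, 43 of the 50 members fell with the dose of Sibjeondaebo-tang and none rose. Among all 18357 genes 3317 fell and 3792 rose. In that fit all 6 fibrillar collagens, all 11 basement membrane genes, all 5 matricellular genes, 6 of 8 other collagens, 4 of 6 fibronectin and elastic fibre genes, 3 of 4 proteoglycans, 4 of 5 crosslinking enzymes and 4 of 5 TGF-beta genes fell. The median slope was -0.18 for the fibrillar collagens, -0.11 for the basement membrane genes and -0.07 for the crosslinking enzymes. COL12A1 fell by 0.32 ± 0.02 and LAMC1 by 0.14 ± 0.01 per step in that fit. LOX, which rose with Astragali Radix, fell by 0.07 ± 0.02 per step, with means of 180.8, 183.9 and 164.5 CPM from low to high dose. Spearman correlations of transcript length with the deviations were -0.125, -0.0997 and -0.224 in Sibjeondaebo-tang high libraries. In its low libraries they were 0.175, 0.167 and 0.215. The members have long transcripts, and the slopes of this paragraph hold no correction for length.

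Of the TGF-beta signalling genes outside the 50, 8 of 16 were lower and 2 higher at the high dose of Sibjeondaebo-tang, against 11.9% and 11.2% of all genes. CCN2 averaged 79.2 CPM against 190.2 CPM in the vehicle (log2 -1.26 ± 0.08). Of 15 folding and processing genes, 1 was higher and 4 lower, of 13 integrins and receptors 1 was lower, and of 11 other collagens and laminins 2 were lower, counts of which several lie near those shares. The fibroblast and pericyte markers summed to 160.7 to 173.4 CPM in Sibjeondaebo-tang high libraries and 225.7 to 238.7 CPM in vehicle libraries, and the part of this was not tested.

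**Figure D4:**
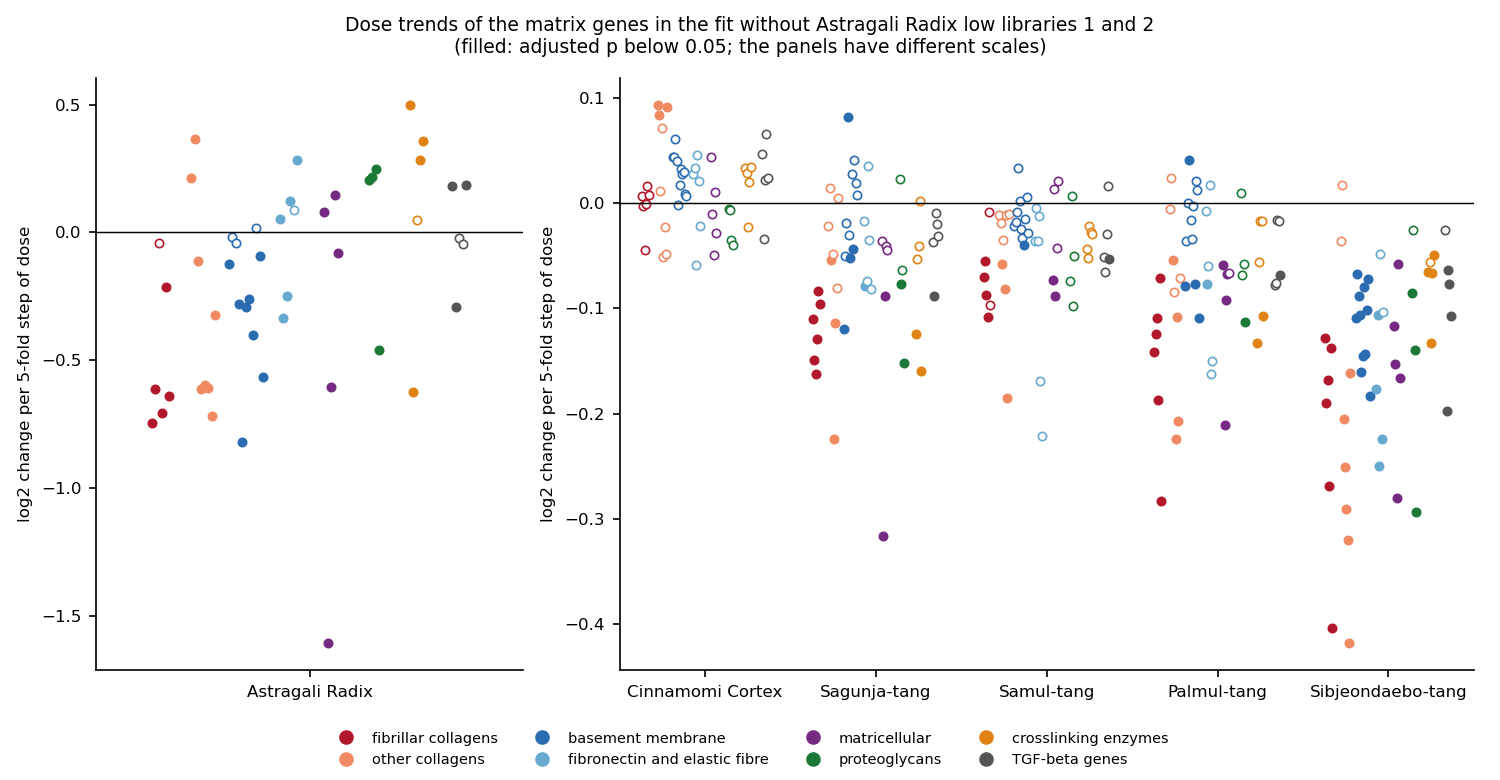
Dose trends of the 50 matrix genes. Points are log2 changes per 5-fold step of dose by extract, fitted without Astragali Radix low libraries 1 and 2, colours mark gene groups and filled points were called, with a wider scale for Astragali Radix; in Sibjeondaebo-tang 43 members fell and in Cinnamomi Cortex 3 rose.

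With the other 3 formulas fewer members were lower than the vehicle at the high dose. Palmul-tang had 14 members (28%) lower and 1 higher, against 10.2% and 10.0% of all genes. Sagunja-tang had 12 (24%) lower and 1 higher, against 11.6% and 11.2%. Samul-tang had 10 (20%) lower and 1 higher, against 10.3% and 9.37%. The shares of members that were lower exceeded those of all genes in each formula. Some of these members were already lower at the low dose. With Samul-tang low and high, TGFB1 averaged 376.8 and 350.6 CPM, BGN 55.4 and 49.9 CPM and PLOD1 525 and 505 CPM. The vehicle had 520.5, 69.6 and 624.4 CPM. COL8A1 (139.9 and 124.8 against 141.7 CPM), SPARC and TGFBI lay nearer the vehicle at the low dose. In each of these formulas the higher member was LAMA4, a laminin alpha chain. Its mean was 383.7, 405.4 and 386.3 CPM for Palmul-tang, Sagunja-tang and Samul-tang, against 316.8 CPM in the vehicle they share. It was already 363.4, 361.5 and 369 CPM at their low doses. LAMA4 was also called higher over the low doses of the 5 extracts other than Astragali Radix. Without the 2 Astragali Radix libraries, the counts were 5 higher and 28 lower for Palmul-tang, 6 and 24 for Sagunja-tang and 11 and 20 for Samul-tang, against 36.4%, 39.2% and 35.7% of all genes called. The Samul-tang count fell to between 4 and 7 without any 1 vehicle library or without Samul-tang high library 1 or 2. Scaling by library totals moved the median of all genes by 0.12 for Sagunja-tang and by 0.10 for Samul-tang and Palmul-tang, and gave 3 higher and 7 lower members for Sagunja-tang, 4 and 3 for Samul-tang and 1 and 11 for Palmul-tang. Under that scaling 4126 of all 17676 genes were higher and 1035 lower for Sagunja-tang, 3361 and 960 for Samul-tang and 3443 and 1012 for Palmul-tang.

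COL8A1 fell with dose in all 4 formulas, and THBS1 in all but Samul-tang. In Sagunja-tang, THBS1 had 1959, 1949 and 1996 CPM at the low dose, 1807, 1720 and 1822 CPM at the medium dose and 1320, 1239 and 1255 CPM at the high dose. The 3 doses did not overlap (slope -0.32 ± 0.04, adjusted p = 1.5e-08). In Palmul-tang, THBS1 had 1910, 1965 and 1921 CPM, then 1947, 2004 and 1969 CPM, then 1402, 1495 and 1418 CPM, low to high, with the fall between the medium and the high dose (slope -0.21 ± 0.04). COL8A1 fell by 0.22 per step in Sagunja-tang, by 0.23 in Palmul-tang and by 0.08 in Samul-tang. The Samul-tang slope was no longer called without Samul-tang high library 1, 2 or 3 or low library 1 or 3, at adjusted p = 0.109 to 0.245, nor with library totals.

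Dose trends were called for 4 members in Palmul-tang, 3 in Sagunja-tang and 1 in Samul-tang, all lower (8%, 6% and 2% of the members). Among all genes 1.77% were lower and 1.92% higher in Palmul-tang, 1.71% and 2.06% in Sagunja-tang, and 0.662% and 0.747% in Samul-tang. Without the 2 Astragali Radix libraries, 22 members fell and 1 rose in Palmul-tang, 20 and 1 in Sagunja-tang and 11 and 0 in Samul-tang, against 11.8%, 13.1% and 6.01% of all genes called. In that fit all 6 fibrillar collagens fell in Palmul-tang and in Sagunja-tang. The median fibrillar slope was -0.13 in Palmul-tang and -0.12 in Sagunja-tang, and 3 of 11 basement membrane genes fell in each. Still without those libraries, LAMA4 rose with dose in both, by 0.04 ± 0.01 in Palmul-tang and 0.08 ± 0.01 in Sagunja-tang, and fell by 0.11 ± 0.01 with Sibjeondaebo-tang. With all libraries none of these LAMA4 trends was called.

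With all 57 libraries in the fit, few members differed between Cinnamomi Cortex and the vehicle. At the high dose 4 (8%) were lower and none higher, against 8.56% and 7.70% of all genes, a share near that of all genes. THBS1 had 1837, 1909 and 1781 CPM, against 2300, 2262 and 2333 CPM in the vehicle (log2 -0.32 ± 0.07). TGFB1 had 403.6, 378.8 and 389.3 CPM against 520.3, 517.1 and 524 CPM (log2 -0.41 ± 0.09). The groups did not overlap, and BGN and TGFB2 were lower as well. TGFB2 was no longer called without vehicle library 1 or 3 or Cinnamomi Cortex high library 1 or 2. No dose trend was called for a member by edgeR or by DESeq2, and for 0.243% of all genes upward and 0.198% downward. Without the 2 Astragali Radix libraries, 16 members were higher and 14 lower than the vehicle, against 32.8% of all genes called. In that fit 3 members rose with dose, COL6A1 by 0.09, COL6A2 by 0.08 and COL16A1 by 0.09 per step, against 2.91% of all genes called.

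Several members differed from the vehicle already at the low doses, where code and treatment cannot be told apart. Over the low doses of the 5 extracts other than Astragali Radix, 6 members (12%) were higher and 6 (12%) lower, against 9.60% and 11.2% of all genes, a share near that of all genes. TGFB1 had 347.4 to 398.5 CPM with Cinnamomi Cortex, 364.2 to 371.5 with Sagunja-tang, 371.5 to 379.7 with Samul-tang, 384.2 to 411.6 with Palmul-tang and 396.4 to 440.8 CPM with Sibjeondaebo-tang, against 517.1 to 524 CPM in the vehicle. All 15 low-dose libraries lay below the vehicle (log2 -0.44 ± 0.07, adjusted p = 6.9e-06). BGN, THBS1 and the lysyl hydroxylase PLOD1 were lower by 0.33, 0.26 and 0.24 on the log2 scale. COL7A1 averaged 234.4 CPM over the 5 low-dose groups and 158.6 CPM in the vehicle (log2 0.56 ± 0.20), a call lost without any 1 vehicle library. The number of members called dropped to 5, 6 and 5 without vehicle library 1, 2 and 3. Without the 2 Astragali Radix libraries, 17 members were higher and 16 lower, against 3442 and 3251 of 18357 genes. Scaling by library totals gave 12 members higher and 4 lower, with 3598 of all 17676 genes higher and 1023 lower.

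Formulas that share a label code were compared with each other at the high dose. Sagunja-tang had 2 members lower than Samul-tang and none higher, against 2.23% and 2.47% of all genes. THBS1 had 1320, 1239 and 1255 CPM with Sagunja-tang, against 1985, 1892 and 2016 CPM with Samul-tang (log2 -0.63 ± 0.07, adjusted p = 2.1e-08). COL8A1 had 109.2, 106.4 and 103.6 CPM with Sagunja-tang, against 125.6, 126 and 122.7 CPM with Samul-tang (log2 -0.23 ± 0.04). The formulas did not overlap for either gene. Without the 2 Astragali Radix libraries 14 members were lower and none higher, against 1544 and 1322 of 18357 genes. PLOD2 (log2 -0.25 ± 0.03) and VCAN (log2 -0.24 ± 0.03) were among the 14.

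Sibjeondaebo-tang had 2 members lower than Palmul-tang, against 3.71% of all genes lower and 1.75% higher. LAMA4 had 299.5, 321.3 and 305.9 CPM with Sibjeondaebo-tang, against 380.6, 386.2 and 384.3 CPM with Palmul-tang (log2 -0.31 ± 0.09, adjusted p = 0.024). THBS2 had 143.6, 141.6 and 127.2 CPM with Sibjeondaebo-tang, against 164.7, 164.1 and 166.1 CPM with Palmul-tang (log2 -0.26 ± 0.08, adjusted p = 0.030). The formulas did not overlap, but both calls were lost without any 1 Palmul-tang high library or without Sibjeondaebo-tang high library 3, and LAMA4 also without library 1. Without the 2 Astragali Radix libraries, 25 members were lower and 3 higher, against 2023 and 2265 of 18357 genes. With a length and GC correction 5 were lower and 5 higher, with 947 of all genes lower and 2463 higher. There LAMA4, COL12A1 (log2 -0.36 ± 0.04), VCAN (log2 -0.30 ± 0.03) and FN1 (log2 -0.30 ± 0.03) were lower with Sibjeondaebo-tang, and LOX (log2 0.14 ± 0.04), PLOD2 (log2 0.18 ± 0.03) and TGFB1 (log2 0.18 ± 0.06) were higher.

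The slope of Astragali Radix was tested against the mean slope of the 4 formulas, whose doses were higher. It was higher for 14 members (28%) and lower for 20 (40%), against 29.8% and 36.4% of all genes, shares near those of all genes. The slope difference was -1.32 ± 0.04 for THBS1, -1.08 ± 0.12 for COL1A1 and -0.68 ± 0.05 for LOXL1, and 0.79 ± 0.05 for LOX and 0.61 ± 0.05 for PLOD2. Without low libraries 1 and 2 the difference was -1.44 for THBS1, -0.63 for COL1A1, -0.57 for LOXL1, 0.59 for LOX and 0.44 for PLOD2. In that fit 17 members were higher and 23 lower, against 62.6% of all genes called, 30 of them shared with the first fit. With all libraries the difference was lower for 5 of 6 fibrillar collagens and higher for none, and higher for 3 of 5 crosslinking enzymes and lower for 1. Without low libraries 1 and 2, 5 fibrillar collagens were lower and 1 higher, and 4 crosslinking enzymes were higher and 1 lower. With library totals the median of all genes shifted by -0.19, and POSTN, TGFB1 and LTBP1 changed sign. There 6 members were higher and 31 lower, against 3055 and 9448 of 17676 genes.

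**Figure D5:**
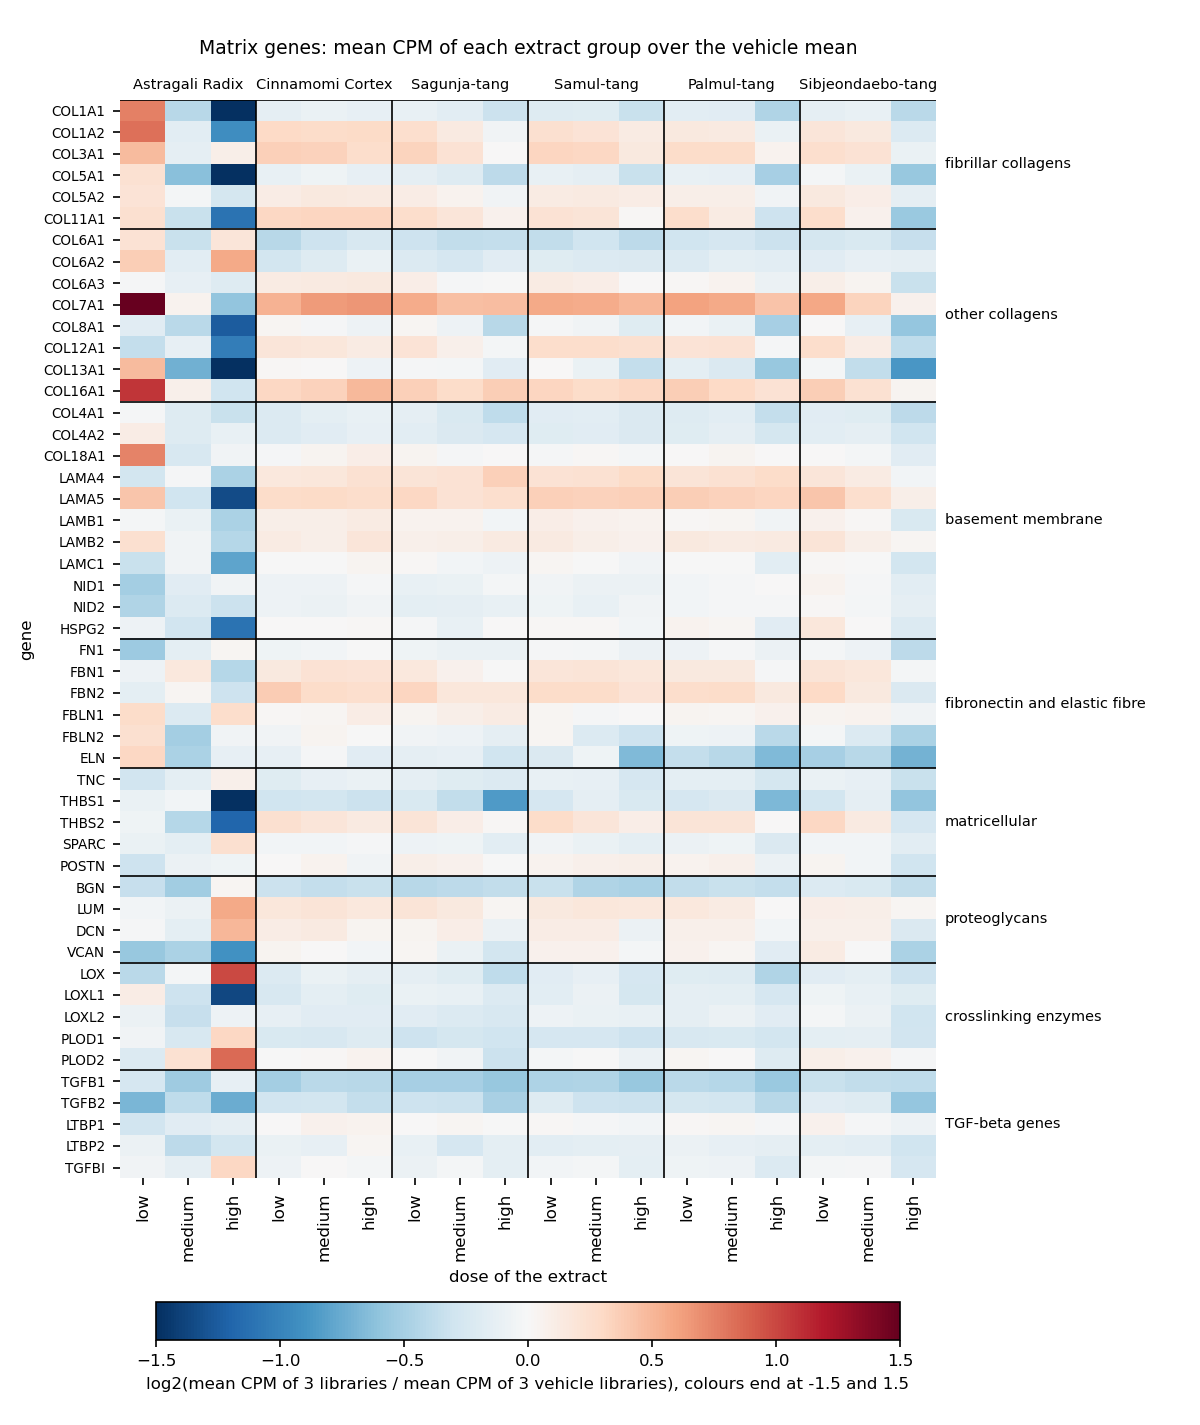
Mean level of each of the 50 matrix genes in each extract group over the vehicle mean. Rows are genes by group, columns are extracts at low, medium and high dose, and colour is log2 of the ratio of mean CPM, ending at -1.5 and 1.5; the Astragali Radix high column holds the strongest blue, and TGFB1 and BGN are blue in most columns.

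Rehmanniae Radix Preparata had 1 library at each dose, and its values are given as a description, with no test. The median log2 ratio of the members to the vehicle mean was -0.03 at the low, 0.01 at the medium and -0.13 at the high dose, against 0.00, 0.01 and 0.01 over all genes tested. TGFB1 had 393.2, 407.6 and 338.1 CPM from low to high dose, below the 517.1 to 524 CPM of the vehicle libraries. THBS1 had 1811, 1774 and 1986 CPM, below 2262 to 2333 CPM in the vehicle.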

How the data were processed

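Expression was measured by 100 bp paired-end RNA sequencing with the MGIEasy RNA Directional kit, per the labels. The submitters' processing notes name the build hg38, the counter RSEM 1.3.3, the aligner STAR 2.7.3a and, for reads, Trim Galore 0.6.5 and FastQC 0.11.9, and the annotation is not given in the sources used here. The authors deposited RSEM expected counts per gene. Of the values 90.8% were whole within 1e-09, and they were rounded to whole numbers here. The table held 219 further columns that were not used. Gene positions come from GENCODE 29.

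Counts were scaled by TMM and filtered with filterByExpr. They were tested with edgeR 4.0.16 (limma 3.58.1, R 4.3.3), by its quasi-likelihood F test in 1 fit over 57 libraries. Benjamini-Hochberg adjustment covered 17676 genes. A prior count of 2 was used only for log2 CPM in the check of replicate numbers and in the length and GC steps. Fits were tested on simulated data. Intervals and p-values cover the spread between libraries and counting error only. Alternatives were DESeq2 1.42.0, other scalings, no filter, only the groups compared, a length and GC correction, a replicate block and leaving out libraries. The members and lists were chosen with earlier results of these data known. Named members were the 6 with the smallest adjusted p in each direction of each comparison, and others, among them LAMA5, HSPG2 and COL12A1, were named after their values were seen. Replicate numbers were not treated as pairing the samples. Figures were drawn with matplotlib 3.10.9.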

Additional observations from a re-analysis of the deposited data

Results flagged for a closer look

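For 6 members the edgeR slope over dose was called higher with Astragali Radix and lower with at least 1 formula. The 6 were picked by these calls and by a called slope difference to the mean of the 4 formulas. A called difference in the fit of all libraries is thus part of the choice and no further test. The doses of Astragali Radix were lower than those of the formulas. The difference per 5-fold step was 0.6142 for PLOD2, 0.3536 for DCN, 0.3472 for FN1, 0.2525 for TGFBI, 0.2241 for SPARC and 0.1883 for POSTN. Without Astragali Radix low libraries 1 and 2 it was 0.443 for PLOD2, 0.3393 for DCN, 0.1127 for FN1, 0.2497 for TGFBI, 0.1971 for SPARC and -0.01678 for POSTN, the last at adjusted p = 0.7195. The Astragali Radix slope of POSTN itself turned to -0.08059 there and was called lower (edgeR adjusted p = 0.04072). With scaling by library totals, the difference of POSTN was near 0 and neither POSTN nor SPARC was called.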

How the results depend on the processing

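Counts are members called, and brackets hold the count from the fit of all 57 libraries. Shares of all genes are not printed beside the counts of this section, which show only how a count depends on the fit. Fits of only the groups compared gave 39 for Astragali Radix medium (14), 0 for Astragali Radix low (26), 34 for Cinnamomi Cortex high (4), 35 for Palmul-tang high (15), 30 for Sagunja-tang high (13), 37 for Samul-tang high (11), 38 for Sibjeondaebo-tang high (23) and 35 for the low doses (12). For dose trends they gave 14 for Astragali Radix (37), 2 for Cinnamomi Cortex (0), 27 for Palmul-tang (4), 20 for Sagunja-tang (3), 7 for Samul-tang (1) and 42 for Sibjeondaebo-tang (21). Between formulas they gave 14 for Sagunja-tang against Samul-tang (2) and 21 for Sibjeondaebo-tang against Palmul-tang (2).

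Without both Astragali Radix low libraries 1 and 2, the counts were 37 for Astragali Radix medium, 14 for Astragali Radix low, 30 for Cinnamomi Cortex high, 33 for Palmul-tang high, 30 for Sagunja-tang high, 31 for Samul-tang high, 38 for Sibjeondaebo-tang high and 33 for the low doses. The trends gave 3 for Cinnamomi Cortex, 23 for Palmul-tang, 21 for Sagunja-tang, 11 for Samul-tang and 43 for Sibjeondaebo-tang, and the formula comparisons 14 and 28.

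A length and GC correction gave 18 for Cinnamomi Cortex high, 29 for Palmul-tang high, 25 for Sagunja-tang high, 24 for Samul-tang high and 25 for the low doses. It gave 13, 11 and 2 for the trends of Palmul-tang, Sagunja-tang and Samul-tang, and 4 and 10 for the formula comparisons. With no filter on low counts, the counts were 12 for Cinnamomi Cortex high, 18 for Samul-tang high, 8, 7 and 0 for the trends of Palmul-tang, Sagunja-tang and Samul-tang, and 6 for Sibjeondaebo-tang against Palmul-tang. Scaling by library totals, chosen after seeing the data, gave 10 for Cinnamomi Cortex high, 7 for Samul-tang high and 0 for the trend of Samul-tang. The causes were not tested. DESeq2 and RLE moved no count by over 1.5 times.

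With the replicate block, counts were 32 for Astragali Radix high, 24 for Sibjeondaebo-tang high and 21 for its trend, and no count moved by over 1.5 times. The labels tie the numbers to no shared batch, and same-numbered samples did not all correlate (median 0.00913, lowest -0.142), so the numbers were not taken to pair the samples. Of 57 libraries 38 were closest to their own number, a hint of pairing from the data and not the design.

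Leaving out each library in turn gave 31 to 32 for Astragali Radix high, 10 to 12 for medium and 20 to 34 for low, 3 to 4 for Cinnamomi Cortex high, 10 to 12 for Palmul-tang high, 11 to 13 for Sagunja-tang high, 4 to 9 for Samul-tang high, 16 to 20 for Sibjeondaebo-tang high and 5 to 12 for the low doses. Trends ranged over 34 to 42 for Astragali Radix, 0 to 0 for Cinnamomi Cortex, 3 to 4 for Palmul-tang, 2 to 2 for Sagunja-tang, 0 to 1 for Samul-tang and 11 to 19 for Sibjeondaebo-tang. The slope difference gave 32 to 40, Sagunja-tang against Samul-tang 2 to 2 and Sibjeondaebo-tang against Palmul-tang 0 to 2.

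Some log2 values changed sign. With library totals TGFBI was -0.01813 and SPARC -0.09172 at the high dose of Astragali Radix, and the SPARC trend was -0.01333. At its low dose COL1A1 was -0.1464 and VCAN 0.008602 without both libraries 1 and 2, and without 1 of those libraries COL18A1 ranged from -0.1228 (without library 2) to 1.051 (without library 1) and COL1A1 from -0.181 to 1.062. With 3 libraries a group, small changes of members with few counts are limited by depth.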
